A study of Mus musculus with 6 samples.

Results

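The cytochrome P450 genes of mouse skin were compared between skin tumors and healthy skin. Members were all non-control probes of the array whose gene name is Cyp followed by a family number, lower-case subfamily letters and a final number. The rule found 109 of 55681 probes, for 86 of 36095 genes in 16 numbered families. A gene was tested if it had a probe with a spot free of outlier flags on every array. The scanner software also had to mark that probe well above background on 3 or more arrays. Among the 24756 features that met both, 56 were P450 genes. The other 30 were not tested: 22 of them had no probe well above background on any array.

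All 6 biopsies came from female FVB/N mice, an inbred albino strain much used for skin carcinogenesis. The 3 tumors, labelled cutaneous squamous cell carcinoma (cSCC), followed topical DMBA, then 6 weeks of PMA (also called TPA) given repeatedly each week, a second DMBA dose and 14 further weeks of PMA. DMBA is a polycyclic aromatic hydrocarbon that mutates DNA once it is activated, and PMA is a phorbol ester that promotes tumor growth. The 3 healthy skins received acetone, and biopsies were collected throughout the protocol. Ages are not given, and the labels do not say whether biopsies of a group came from separate mice, so p-values measure only the spread between these samples. No DMBA- and PMA-treated skin without a tumor was included, so the tumor and the treatment cannot be told apart.

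P450 enzymes are heme proteins, most of them in the endoplasmic reticulum, that insert an oxygen atom into lipids, hormones, vitamins, drugs and pollutants, with electrons from the reductase Por. Families 1 to 3 hold most of the enzymes that oxidise foreign compounds, family 4 mainly hydroxylates fatty acids, and the higher family numbers make or break down sterols, steroid hormones, bile acids, vitamin D and retinoic acid. In skin, P450 enzymes of family 1 activate hydrocarbons such as DMBA, and others make the hydroxylated and epoxidised fatty acids of the epidermis.

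A probe is a 60-base oligonucleotide that reports 1 gene, and what it hybridises with sets what its signal means. The first 30 bases of the probes behind the largest differences are given here 5′ to 3′ from the array files, with Cyp2u1 beside them because capitals mark a GT repeat that runs for 32 of its 60 bases.
Cyp2g1: gtcagcttacataatctttgtctttgccct
Cyp2f2: aatgacgtgacaaaggtgaaatacccgtct
Cyp1a1: gataatttgctagtgtaacaaagaagattc
Cyp2b19: tgttgagacaggatctcactatgtagacct
Cyp2c38: aatggattaattgctctgccaccccattac
Cyp2u1: actttatcattgGTGTGTGTGTGTGTGTGT
Words of 16 bases from the Cyp2u1 probe occurred in 176 of 32851 RefSeq promoter windows of other genes, against at most 3 for any other tested P450 probe. Near-identical relatives were a second limit on specificity. This was examined only between P450 probes, so a match of a probe to another part of a relative's transcript would not be seen. Between probes of different P450 genes, 4 pairs matched at 80% or more of at least 40 overlapping bases: Cyp2c37 with Cyp2c50, Cyp2c67 with Cyp2c68, and Cyp4a10 with Cyp4a31 at each of 2 probes. The Cyp4a10 and Cyp4a31 stretches below share 28 of 30 bases, and capitals mark where they differ.
Cyp4a10: atcttccctcctttctgcaataaagTtccC
Cyp4a31: atcttccctcctttctgcaataaagGtccA

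The arrays recorded between 48.7% and 65.4% of non-control spots as well above background, and no spot was saturated. The median background of tumor 1 was 85 units and that of the rest 23 to 26, and healthy skin 3 had the lowest 75th percentile of signal. Log2 signals of 2 arrays correlated at 0.937 to 0.971 within healthy skin, 0.959 to 0.966 within tumors and 0.821 to 0.894 between the groups. The keratinocyte genes Krt5, Krt14 and Trp63 were well above background on every array, so both groups held epidermal cells. Several marker lists of other cells moved with the groups. All 8 skeletal muscle markers tested, 6 of 7 adipocyte markers and 6 of 9 sebaceous gland markers were lower in tumors. Higher were 7 of 8 neutrophil markers. Other lists were mixed or mostly not called. Among 8 fibroblast markers 3 were lower and 1 higher, and among 8 macrophage markers 1 was lower and 1 higher. Lower too were 1 of 8 hair follicle and 1 of 6 endothelial markers. Over all features tested, 15.6% were lower and 10.3% higher, so the macrophage, hair follicle and endothelial counts were near that share. Hair follicle genes such as Krt71 differed within groups, with 7.62, -1.21 and -1.53 in healthy skin and 5.76, -5.44 and 5.39 in tumors. The summed linear level of the muscle markers ran from 890 to 1308 in healthy skin and from 23.9 to 54.5 in tumors, and its part in the results was not tested.

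Tumors had less signal from more P450 genes than they had more of. Of the 56 tested, 15 were lower in tumors (26.8% of them) and 6 were higher at a limma adjusted p below 0.05, where limma's moderated test was adjusted by Benjamini-Hochberg over all 24756 features. Among all features tested, 15.6% were lower and 10.3% were higher, so the share of P450 genes called higher was close to the background. The median log2 fold change of the 56 genes was -0.44, against -0.16 over all features, and with spike-in scaling these were 0.45 and 0.73. The arrays of the 2 groups did not overlap for 30 of the 56 genes, 21 of them with tumors below and 9 above, and this held for 49.7% of all features. With scaling to the array median the split over all features turned from 2553 higher and 3867 lower to 4389 higher and 2586 lower, while 8 P450 genes were higher and 13 lower. In whole biopsies, fewer cells that express a gene and less RNA per cell cannot be told apart.

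**Figure D1:**
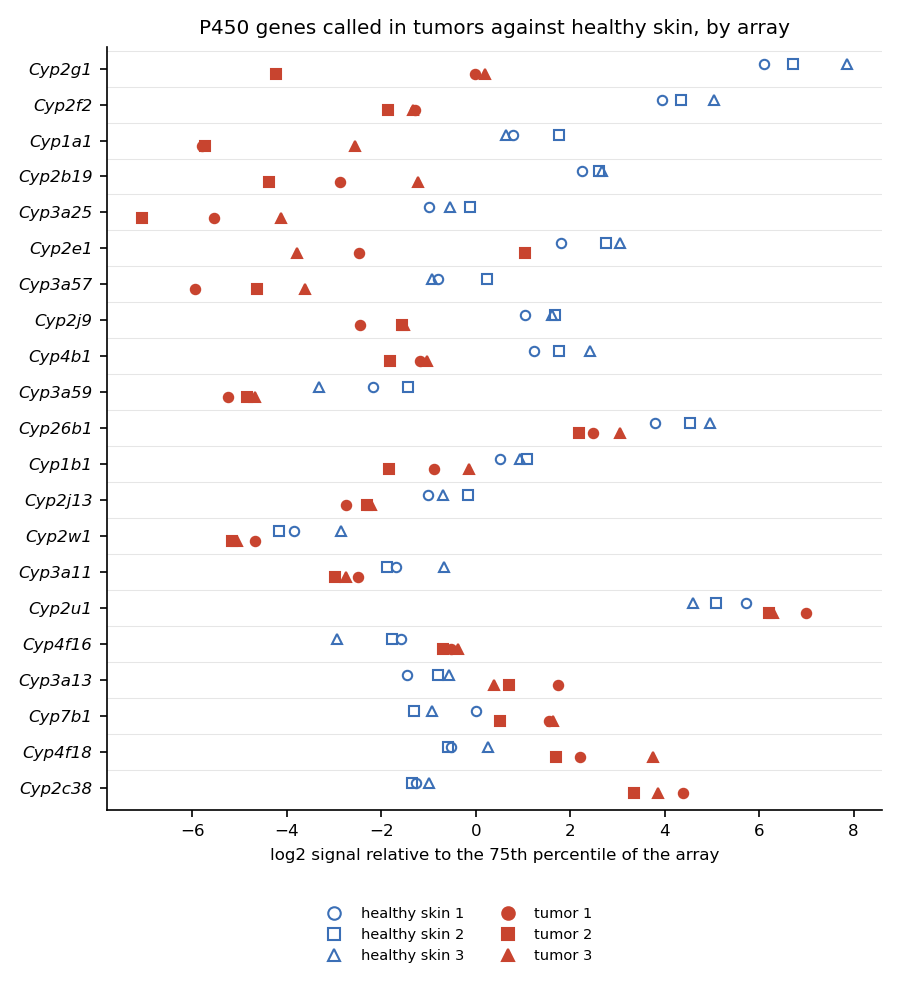
Log2 signal of the 21 called P450 genes, relative to the 75th percentile of each array, with 1 open symbol per healthy skin array and 1 filled symbol per tumor array. No gene's groups overlap, Cyp2g1 has the widest gap between group means and Cyp2c38 the widest among genes higher in tumors.

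The calls are given here by family, with no test between families. In family 2, 7 of 29 tested genes were lower and 2 were higher, with a median log2 fold change of -0.59 that turned to 0.30 with spike-in scaling. In family 3, 4 of 5 were lower and 1 was higher, and both tested genes of family 1 were lower. With spike-in scaling 2 genes of family 3 and 1 of family 1 were called lower. That scaling called 782 of all 24756 features lower, against 3867 without it. In family 4, 2 of 10 were higher and 1 was lower, with a median of 0.81, positive under every scaling tried. The single tested gene of family 7 was higher and that of family 26 was lower. The 8 genes tested in families 11, 17, 20, 21, 24, 27 and 46 gave no call, and families 8, 19 and 39 had no tested gene.

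**Figure D2:**
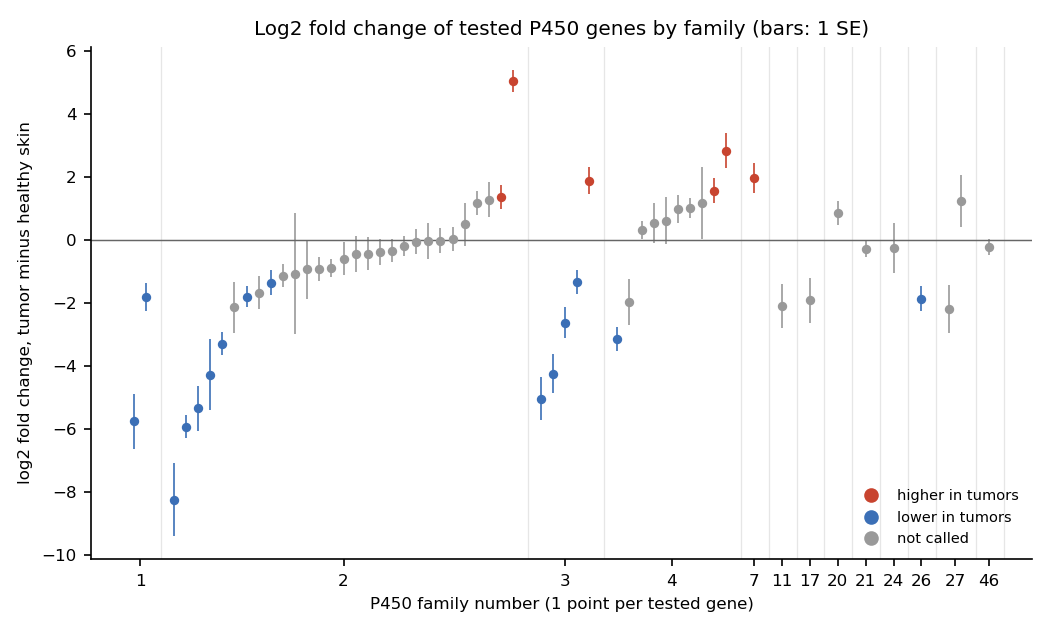
Log2 fold change, tumor minus healthy skin, of each of the 56 tested P450 genes, grouped by family number, with bars of 1 SE. Called genes of families 1 to 3 reach from -8.24 to 5.06, and 7 of the 10 family 4 genes are not called.

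Both tested genes of family 1 were lower in tumors. Cyp1a1, which oxidises polycyclic aromatic hydrocarbons and is switched on by the aryl hydrocarbon receptor, had log2 signals of 0.79, 1.76 and 0.64 in healthy skin and -5.79, -5.74 and -2.56 in tumors. The groups lay far apart, and tumor 3 stood above the other tumors. The fall was 54.1-fold (log2 fold change -5.76 ± 0.86, SE, limma adjusted p = 0.00421, n = 3 per group). Its probe, at chr9:57551535-57551594 (mm9), was well above background on 1 of 3 tumor arrays only, so the size rests on dim spots: with normexp background correction the log2 fold change was -3.89.

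Cyp1b1, the other hydrocarbon-activating enzyme of the family, gave 0.51, 1.09 and 0.94 in healthy skin and -0.89, -1.83 and -0.14 in tumors. The groups did not overlap, although tumor 3 came within 1 log2 unit of healthy skin 1. It was 3.48-fold lower (log2 fold change -1.80 ± 0.45, limma adjusted p = 0.0262). That call was lost without healthy skin 2, healthy skin 3, tumor 1 or tumor 2 (adjusted p 0.0638 to 0.0774), when blocked by slide row, which leaves healthy skin 3 against the tumors (0.0806), with no detection filter (0.0607) and with spike-in scaling (-0.91). Without healthy skin 3 and tumor 1 together Cyp1b1 was not called either. The liver enzyme Cyp1a2 was not well above background on any array.

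The aryl hydrocarbon receptor binds the core letters GCGTG in DNA, so the promoters of these genes are shown. Each is 250 bases before the RefSeq start (GRCm38.p6), written along the gene's strand, with the core or its reverse complement in capitals: chr9:57697363-57697612 for Cyp1a1 and chr17:79715062-79715311 for Cyp1b1.
Cyp1a1: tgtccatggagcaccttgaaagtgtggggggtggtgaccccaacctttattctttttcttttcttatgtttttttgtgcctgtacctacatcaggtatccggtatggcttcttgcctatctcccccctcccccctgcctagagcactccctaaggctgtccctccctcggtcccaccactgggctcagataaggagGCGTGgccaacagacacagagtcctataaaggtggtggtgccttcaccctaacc
Cyp1b1: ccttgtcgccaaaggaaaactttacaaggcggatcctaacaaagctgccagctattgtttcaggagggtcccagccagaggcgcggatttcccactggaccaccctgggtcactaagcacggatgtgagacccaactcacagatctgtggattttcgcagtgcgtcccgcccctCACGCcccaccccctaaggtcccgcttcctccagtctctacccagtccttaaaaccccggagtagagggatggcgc
Each window held 1 match on either strand. The same letters were in 28.2% of all 32851 promoter windows and in 15 of the 75 windows of P450 genes (20%), 65 of the 86 genes having an entry. The core promoter letters TATAAA were in 36% of P450 windows and 12.4% of all windows, and CCAAT in 42.7% and 33.8%. A match is a description of the letters and not evidence of binding.

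Of 7 genes of the aryl hydrocarbon receptor pathway, 1 was lower and 1 higher, a share near the 15.6% and 10.3% of all features. Ahrr, which encodes the receptor's repressor and is itself one of its targets, had -1.93, -1.50 and -0.88 in healthy skin and -5.15, -5.31 and -4.01 in tumors. It was lower on every tumor array, as Cyp1a1 and Cyp1b1 were (log2 fold change -3.38 ± 0.45, limma adjusted p = 0.00271), with 2 of 3 tumor arrays well above background. Tiparp, a further target that encodes an ADP-ribosyltransferase, had 0.997, 1.11 and 0.64 in healthy skin and 2.72, 3.44 and 2.51 in tumors, and so was higher on every tumor array (1.97 ± 0.34, limma adjusted p = 0.00694). The receptor gene Ahr had a log2 fold change of -1.04 (adjusted p = 0.106) and its partner Arnt one of -0.80 (adjusted p = 0.138).

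The largest falls of family 2 lay in the P450 cluster of chromosome 7. Cyp2g1, a P450 known from the olfactory mucosa, had log2 signals of 6.10, 6.71 and 7.85 in healthy skin. In tumors it had -0.02, -4.23 and 0.20, with tumor 2 far below the others. Its fitted log2 fold change of -8.24 ± 1.15 (limma adjusted p = 0.00326) was the most negative of all 24756 features, and without tumor 2 it was -6.80. Its probe, at chr7:27606111-27606170 (mm9), was well above background on all 6 arrays.

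Cyp2f2, known for activating naphthalene in club cells of the lung, had 3.94, 4.34 and 5.04 in healthy skin and -1.29, -1.86 and -1.32 in tumors. Its tumors lay within 0.6 log2 units of each other, and it was 60.9-fold lower (-5.93 ± 0.36, limma adjusted p = 0.000293; probe at chr7:27918570-27918629). Cyp2b19, an arachidonic acid epoxygenase of differentiating keratinocytes, had 2.25, 2.61 and 2.68 in healthy skin and -2.88, -4.39 and -1.23 in tumors. It was lower on every tumor array and uneven among them (log2 fold change -5.34 ± 0.72, limma adjusted p = 0.00285; probe at chr7:27557545-27557604). The suprabasal keratin Krt10 had 5.53, 2.94 and 6.16 in tumors 1 to 3, against 8.02 to 8.44 in healthy skin. That order was shared by Cyp2b19 and Krt1, while loricrin (Lor) had 7.28, 5.24 and 6.35. The other epidermal markers had other orders. Involucrin (Ivl), not called (0.25), had 1.70, 2.83 and 2.45, so tumor 2 was its highest, as it was for Krt14 and Trp63. Krt5 and Dsg3 were highest in tumor 1. Over the 8 epidermal markers, 3 were lower and 1 was higher, and their summed linear level ran from 1425 to 2174 in healthy skin and from 845 to 931 in tumors, with none at background. Their part in the fall of Cyp2b19 was not tested.

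The other 5 tested genes of the cluster were not called. Cyp2s1, a P450 of epithelia, had 2.53, 2.55 and 3.54 in healthy skin and 5.32, 3.55 and 3.61 in tumors. The groups only just failed to overlap, and the difference was not called (1.28 ± 0.55, limma adjusted p = 0.122), though it was called higher with spike-in scaling (2.18, adjusted p = 0.0447). Cyp2b10, a phenobarbital-inducible enzyme, had 2.96, 3.60 and 3.22 in healthy skin and 0.65, -0.40 and 3.13 in tumors, so tumor 3 lay within the healthy range and the gene was not called (-2.14 ± 0.82, adjusted p = 0.0926). Cyp2t4 had -0.89 (adjusted p = 0.0555) and Cyp2b9 -0.93 (adjusted p = 0.485). Cyp2b13, Cyp2b23, Cyp2a12 and Cyp2a22 were not tested. Counted from the Cyp2g1 probe, that of Cyp2b19 lay at -48.6 kb and that of Cyp2f2 at 312.5 kb, with the untested Cyp2a22 and Cyp2a12 between Cyp2g1 and Cyp2f2.

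**Figure D3:**
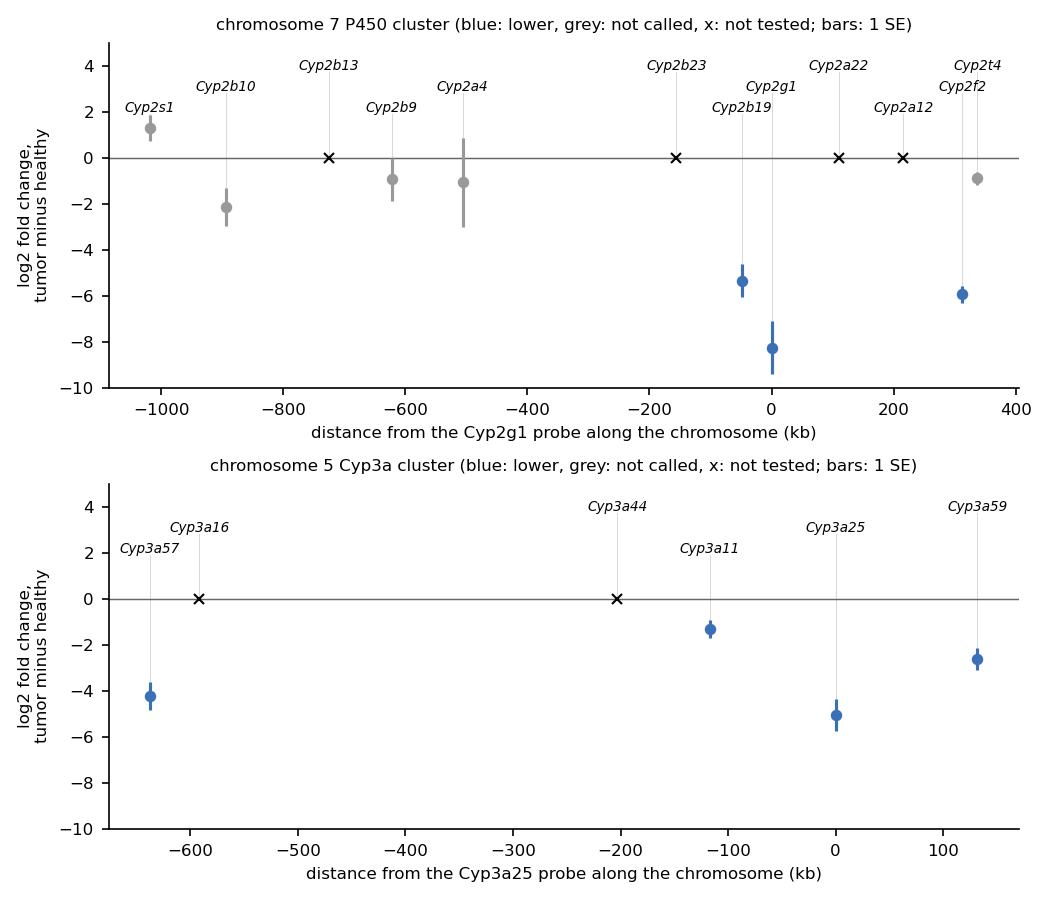
Log2 fold change, tumor minus healthy skin, with bars of 1 SE, against the distance in kb from the Cyp2g1 probe on chromosome 7 (upper panel) and from the Cyp3a25 probe on chromosome 5 (lower panel). Crosses at 0 mark genes that were not tested, not a measured 0. The 3 called genes of the upper panel lie between -48.6 and 312.5 kb, and all 4 tested genes of the lower panel are lower.

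Cyp2a4, a testosterone-hydroxylating enzyme of the same cluster, is described after its values were seen because its tumors went opposite ways. It had -0.35, -0.19 and 0.83 in healthy skin, -3.92 and -3.17 in tumors 1 and 2, and 4.18 in tumor 3. A separate Cyp2a4 probe gave -1.87, -1.79 and -1.50 in healthy skin and -5.16, -3.98 and 2.54 in tumors. Both probes thus placed tumors 1 and 2 below all healthy skins and tumor 3 above them, and the group difference was not called (-1.07 ± 1.93, limma adjusted p = 0.706).

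Further family 2 genes were lower in tumors. Cyp2e1, which oxidises ethanol, acetone and other small molecules, had 1.81, 2.76 and 3.05 in healthy skin and -2.47, 1.05 and -3.79 in tumors. Tumor 2 came close to the healthy range. A separate probe, well above background on 1 of 3 tumor arrays only, gave -5.64, -0.72 and -6.16 in the same tumors. The fall was 19.4-fold (-4.28 ± 1.12, limma adjusted p = 0.0301; probe at chr7:147960628-147960687, outside the cluster). It was not called without healthy skin 2, healthy skin 3, tumor 1 or tumor 3 (limma adjusted p 0.0639 to 0.0967) or with no detection filter (0.0623). Nor was it called without healthy skin 3 and tumor 1 together, or when blocked by slide row. Without tumor 2 its log2 fold change was -5.67. The adipocyte hormone gene Adipoq had -1.94, 0.25 and -3.28 in tumors 1 to 3, in the same order as Cyp2e1, and tumor 2 was the highest tumor for all 7 adipocyte markers tested. Of these, 6 were lower, with log2 fold changes of -4.96 to -4.15, and Fabp4 was not called (0.90). The skeletal muscle genes Acta1 and Ckm were highest in tumor 2 as well, so that order was not particular to adipocyte genes. The adipocyte markers summed to 117 to 497 in healthy skin and 66.7 to 219 in tumors, sums in which Fabp4 was the brightest tumor signal, and Lep was not well above background in tumors. Their part in the fall of Cyp2e1 was not tested.

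In the Cyp2j subfamily, whose enzymes epoxidise arachidonic acid, 2 of 3 tested genes were lower. Cyp2j9 had 1.04, 1.67 and 1.60 in healthy skin and -2.45, -1.56 and -1.53 in tumors. Both groups were tight and well apart (log2 fold change -3.29 ± 0.36, 9.76-fold lower, limma adjusted p = 0.00141; probe at chr4:96235281-96235340). Cyp2j13 had -1.02, -0.17 and -0.70 in healthy skin and -2.76, -2.30 and -2.21 in tumors. It was lower on every tumor array (-1.79 ± 0.33, adjusted p = 0.00897), but not called with spike-in scaling (-0.90), and its separate probe gave -1.06 (adjusted p = 0.0636). The brightest Cyp2j6 probe had 0.18, 1.07 and -1.28 in healthy skin and -0.83, -0.35 and -0.17 in tumors, so the groups overlapped (-0.44 ± 0.58, adjusted p = 0.595). A dimmer Cyp2j6 probe gave -1.91 (adjusted p = 0.0337), so the result for Cyp2j6 depended on the probe.

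Cyp2w1, a P450 noted in fetal colon and colon tumors, was dim throughout, with -3.85, -4.16 and -2.85 in healthy skin and -4.67, -5.17 and -5.05 in tumors. The groups lay about 0.5 log2 units apart at their nearest arrays (-1.35 ± 0.39, limma adjusted p = 0.043). The call was lost without any 1 of 5 of the 6 arrays, healthy skin 2 being the exception (adjusted p 0.0536 to 0.123), under each other scaling, with normexp, with the authors' values, with no detection filter and with the replicate block (adjusted p = 0.0594).

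Cyp2c38 rose most. It encodes an arachidonic acid epoxygenase, and its log2 signals were -1.26, -1.35 and -0.99 in healthy skin and 4.38, 3.34 and 3.85 in tumors. Every tumor lay over 4 log2 units above every healthy skin. The rise was 33.3-fold (5.06 ± 0.34, limma adjusted p = 0.000329; probe at chr19:39465415-39465474, mm9). A separate Cyp2c38 probe about 1 kb away was not well above background on any array, so the rise was seen with 1 probe only. None of the other 5 tested Cyp2c genes was called, and their log2 fold changes ran from -0.92 for Cyp2c65 to 0.51 for Cyp2c44.

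Cyp2u1, a fatty acid hydroxylase, had 5.71, 5.09 and 4.60 in healthy skin and 6.99, 6.20 and 6.30 in tumors. The groups lay 0.49 log2 units apart at their nearest arrays (1.37 ± 0.39, 2.58-fold higher, limma adjusted p = 0.0385). This is the probe with the GT repeat printed above, while the other Cyp2u1 probe was not well above background on any array. The call was lost without any 1 of 5 arrays (adjusted p 0.0685 to 0.104), the exception being healthy skin 1, and with quantile normalization (0.0642), spike-in scaling (0.0662) or no detection filter (0.0866). Without healthy skin 3 and tumor 1 together the call was lost too. What the signal of this probe holds besides Cyp2u1 was not tested.

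The Cyp2d subfamily, whose members oxidise many drugs in liver, had 8 of 9 genes tested and none called. Its median log2 fold change was -0.04. Cyp2d34 had -4.16, -4.84 and -3.11 in healthy skin and -4.98, -6.02 and -6.11 in tumors with its tested probe, which was not well above background in tumors, and was not called (limma adjusted p = 0.051). Its other probe went the opposite way: it was well above background on 2 tumor arrays and no healthy skin array, with a mean difference of 0.48. Cyp2d9 went the other way, with -4.94, -4.57 and -5.93 against -4.08, -3.94 and -3.90, and was not called either (1.17 ± 0.39, adjusted p = 0.0615). Cyp2r1, the main vitamin D hydroxylase of liver and also of family 2, is given with the vitamin D enzymes.

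In family 3, the Cyp3a enzymes oxidise steroids and a wide range of drugs. Their tested genes on the distal cluster of chromosome 5 were all lower. Cyp3a16 and Cyp3a44, also in that cluster, were not tested. They were well above background on 2 tumor arrays and 1 tumor array, and on no healthy skin array. Cyp3a25 had -0.98, -0.11 and -0.54 in healthy skin and -5.55, -7.06 and -4.13 in tumors. The groups lay over 3 log2 units apart (-5.03 ± 0.69, 32.7-fold lower, limma adjusted p = 0.00308; probe at chr5:146788879-146788938), with 1 of 3 tumor arrays well above background. With normexp background correction the log2 fold change was -2.76. Cyp3a57 had -0.81, 0.24 and -0.93 in healthy skin and -5.95, -4.64 and -3.62 in tumors. It was lower on every tumor array (-4.24 ± 0.62, adjusted p = 0.00378; probe at chr5:146151322-146151381), and -2.71 with normexp background correction. In both genes tumor 3 was the highest tumor, as it was for Cyp1a1 and for the sebaceous lipid genes Awat1, Awat2, Dgat2l6, Elovl3 and Soat1. The other tested sebaceous markers differed: Scd1 was highest in tumor 2, and Scd3, Fads6 and Mc5r in tumor 1. Markers of other cells, such as Krt10, S100a8, Csf1r and Col1a1, were also highest in tumor 3, while Krt14 and Adipoq were highest in tumor 2. The order was thus not particular to sebaceous genes. The 10 sebaceous markers summed to 31.4 to 63.6 in healthy skin and 3.86 to 8.54 in tumors, with Far2 not well above background in either group. Their part in these falls was not tested.

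Cyp3a59 had -2.17, -1.43 and -3.32 in healthy skin and -5.25, -4.85 and -4.67 in tumors. The groups did not overlap (-2.62 ± 0.49, limma adjusted p = 0.00939), and a separate probe fell too (-3.68, adjusted p = 0.0147). With the tested probe 2 of 3 tumor arrays were well above background, and with the separate probe none was, so the sizes rest on dim spots. With spike-in scaling Cyp3a59 was not called (-1.73). Cyp3a11, the most abundant Cyp3a of mouse liver, had -1.70, -1.88 and -0.68 in healthy skin and -2.49, -2.98 and -2.75 in tumors. This small fall (-1.32 ± 0.38, limma adjusted p = 0.0413) was called in 7 of 18 alternatives. It was lost without any 1 of 5 arrays, healthy skin 3 being the exception (adjusted p 0.0533 to 0.123), under each other scaling, with the authors' values, with no detection filter and with the replicate block (adjusted p = 0.0564). Among markers of hepatocytes, 1 of 3 tested was lower, the 7 listed markers summed to 6.05 to 9.15 in healthy skin and 4.75 to 5.93 in tumors, and Alb, Apob and Fgb were not well above background in healthy skin.

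Cyp3a13, which lies apart from the cluster on chromosome 5 (probe at chr5:138335412-138335471), was the 1 family 3 gene called higher. It had -1.45, -0.81 and -0.57 in healthy skin and 1.74, 0.69 and 0.39 in tumors. Every tumor lay above every healthy skin (1.88 ± 0.43, 3.69-fold, limma adjusted p = 0.0195). A separate probe about 1 kb away gave -1.03, -1.18 and -0.28 in healthy skin and -1.39, -1.65 and -2.11 in tumors, all of them lower. With the mean of both probes the gene was not called (0.50, adjusted p = 0.343), so its direction depended on the probe, and without healthy skin 1 it was not called either (adjusted p = 0.0583), nor when blocked by slide row (0.105). Cyp3a16, which lies in the distal cluster, was not tested and is described after its values were seen. It had -7.23, -7.51 and -6.54 in healthy skin, -5.91 in tumor 1, -1.93 in tumor 2 and -3.43 in tumor 3. It was well above background in tumors 2 and 3 only.

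Family 4 was the one larger family with a positive median. Cyp4f18, which inactivates leukotrienes and is known from neutrophils, had -0.51, -0.59 and 0.27 in healthy skin and 2.21, 1.70 and 3.76 in tumors. Every tumor was higher and tumor 3 the highest (2.84 ± 0.55, 7.15-fold, limma adjusted p = 0.011; probe at chr8:74512382-74512441). A probe shifted by 1 base gave 2.49 (adjusted p = 0.0125). Blocked by slide row, Cyp4f18 was not called (2.29, adjusted p = 0.0742). Tumor 3 was also the highest tumor for 6 of the 7 neutrophil markers called higher, Ltf being the exception. The macrophage genes Cd68 and Csf1r and the fibroblast gene Col1a1 were highest in tumor 3 too, so that order was not particular to neutrophil genes. Among the neutrophil markers called higher, Ltf and Ngp were not well above background in healthy skin. The log2 fold changes of the others ran from 4.84 for Cxcr2 to 8.04 for Retnlg. Csf3r, the marker not called (-0.76), held most of the summed healthy signal, which was 205 to 264 in healthy skin and 688 to 873 in tumors for the 8 markers. Their part in the rise of Cyp4f18 was not tested.

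Cyp4f16, of the same subfamily, had -1.59, -1.78 and -2.93 in healthy skin and -0.53, -0.69 and -0.38 in tumors. The tumors were tight and all higher (1.57 ± 0.40, 2.97-fold, limma adjusted p = 0.0274; probe at chr17:32688210-32688269). The call was lost without healthy skin 2 or any 1 tumor (adjusted p 0.0512 to 0.0725), with spike-in scaling (0.0608) and with no detection filter (0.065). Cyp4f17 had 1.02 (adjusted p = 0.0556) and Cyp4f13 0.33 (adjusted p = 0.44). Cyp4f39, which makes the ultra-long omega-hydroxy fatty acids of barrier ceramides, had -0.05, 0.80 and -0.08 in healthy skin and 2.02, 0.53 and 1.11 in tumors. Tumor 2 lay below healthy skin 2, and the gene was not called (0.99 ± 0.45, adjusted p = 0.142).

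Cyp4b1, a fatty acid hydroxylase that also activates plant furans, had 1.22, 1.77 and 2.41 in healthy skin and -1.19, -1.81 and -1.03 in tumors. It was the 1 family 4 gene called lower (-3.14 ± 0.39, 8.84-fold, limma adjusted p = 0.00219; probe at chr4:115297406-115297465). Cyp4v3 had 0.54, 1.46 and 0.93 in healthy skin and -2.72, -0.42 and 0.19 in tumors. Its groups did not overlap, but tumor 1 stood far from the others and the gene was not called (-1.96 ± 0.72, adjusted p = 0.0828).

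The Cyp4a genes encode fatty acid omega-hydroxylases that Ppara induces. They were not called and are described after their values were seen, because tumor 2 stood apart in all 3 that were tested. Cyp4a10 had -2.00, -2.07 and -1.07 in healthy skin and -2.01, 0.32 and -1.82 in tumors. Cyp4a31 had -2.58, -2.74 and -1.55 against -2.77, 0.06 and -2.28. Cyp4a32 had -4.76, -6.04 and -4.18 against -5.85, -1.09 and -4.54. With each tested probe, tumor 2 was above all healthy skins while tumors 1 and 3 lay within or below their range. Adjusted p ran from 0.473 to 0.557 (limma). The tested Cyp4a10 and Cyp4a31 probes are the near-identical pair printed above, so these are not independent readings. A further probe of each of these genes was well above background on 2 tumor arrays and no healthy skin array. With it tumor 2 was again the highest, but tumor 3 also lay above all healthy skins (-3.98 for Cyp4a10, -4.95 for Cyp4a31).

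**Figure D4:**
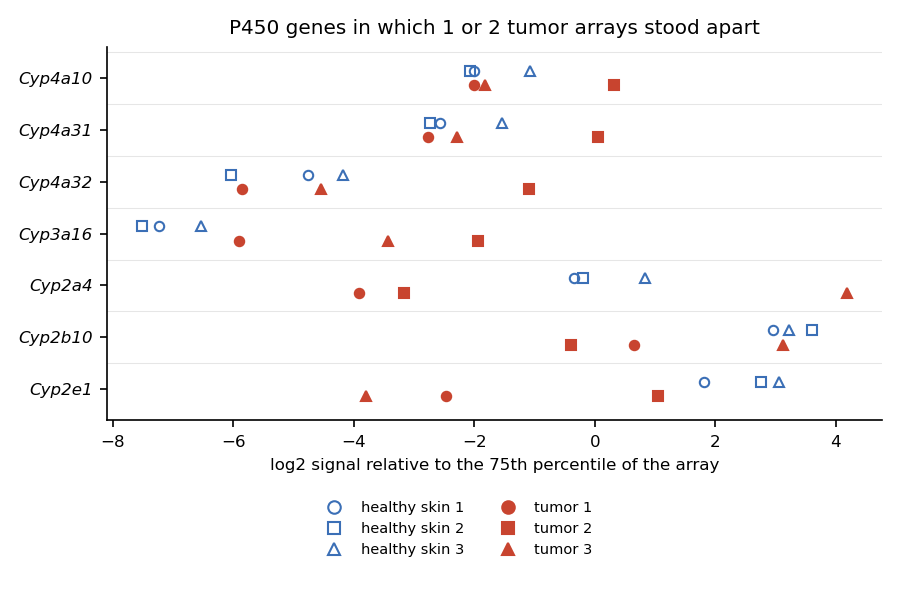
Log2 signal, relative to the 75th percentile of each array, of 7 P450 genes in which 1 or 2 tumors stood apart, with 1 open symbol per healthy skin array and 1 filled symbol per tumor array. Tumor 2 is highest among tumors for the Cyp4a genes, Cyp3a16 and Cyp2e1, and tumor 3 for Cyp2a4 and Cyp2b10.

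Among the sterol enzymes, Cyp7b1 was higher. It hydroxylates oxysterols, the oxidised forms of cholesterol, and had 0.00, -1.32 and -0.92 in healthy skin and 1.55, 0.51 and 1.63 in tumors. The lowest tumor was 0.51 above healthy skin 1 (1.97 ± 0.46, 3.93-fold, limma adjusted p = 0.0206; probe at chr3:17972286-17972345). The call was lost without healthy skin 2, healthy skin 3, tumor 1 or tumor 3 (limma adjusted p 0.0594 to 0.0647). It was also lost without healthy skin 3 and tumor 1 together, and when blocked by slide row. Cyp27a1, which starts the acidic route to bile acids in mitochondria, had -1.98, -2.09 and -4.79 against -2.81, -0.88 and -1.47, with overlapping groups (1.23 ± 0.83, adjusted p = 0.299), and was called higher when blocked by slide row only (3.07, adjusted p = 0.028). Cyp46a1, the cholesterol hydroxylase of brain, had -1.70, -1.85 and -1.89 in healthy skin and -1.85, -2.07 and -2.19 in tumors, which overlapped (-0.22 ± 0.26, adjusted p = 0.547). Cyp7a1 and Cyp8b1, which make bile acids in liver, were not tested. Cyp39a1, a further oxysterol hydroxylase, had 1.38, 1.75 and 2.23 in healthy skin and -0.94 and -0.52 in tumors 2 and 3. Its tumor 1 spot carried an outlier flag, so it has no test.

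Cyp26b1, which degrades retinoic acid, was lower. It had 3.79, 4.54 and 4.96 in healthy skin and 2.48, 2.18 and 3.06 in tumors. The groups did not overlap (-1.86 ± 0.40, 3.62-fold lower, limma adjusted p = 0.0153; probe at chr6:84521952-84522011). The call was lost without healthy skin 2 or tumor 2 (limma adjusted p 0.0502 to 0.0538) and with spike-in scaling (-0.97). It was also lost without healthy skin 3 and tumor 1 together. Its relatives Cyp26a1 and Cyp26c1 were not tested.

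The vitamin D enzymes were not called with all 6 arrays and no block, but 3 of them were under some alternatives. Cyp2r1, which starts the activation of vitamin D, had 1.12, 1.01 and 2.16 in healthy skin and 0.58, 0.25 and 0.09 in tumors. All tumors were below all healthy skins (-1.12 ± 0.38, limma adjusted p = 0.0657), and it was called lower in 5 alternatives, among them the authors' values (-1.18, adjusted p = 0.0346) and the mean of its probes (-1.21, adjusted p = 0.0359). Cyp27b1, which makes the active hormone, had -2.73, -4.87 and -1.54 against -5.36, -5.51 and -4.83 and overlapped by a narrow margin (-2.19 ± 0.77, limma adjusted p = 0.074). It was called lower without healthy skin 2 (-3.10, adjusted p = 0.0102), with the replicate block (adjusted p = 0.0362) and when blocked by slide row (-3.70, adjusted p = 0.0237). Cyp24a1, which breaks the hormone down, was dim, with -4.53, -4.59 and -6.49 against -4.15, -6.86 and -5.36 (-0.25 ± 0.78, adjusted p = 0.832), and its sign turned under several other settings.

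The steroid hormone enzymes gave no call with all 6 arrays and no block. Cyp17a1, needed for androgens, had 3.41, 3.39 and 6.07 in healthy skin and 2.58, 2.34 and 2.20 in tumors. All tumors were lower, and healthy skin 3 stood far above the other healthy skins (-1.92 ± 0.70, limma adjusted p = 0.0825). It was called lower without healthy skin 3 (-1.03, adjusted p = 0.0331) and when blocked by slide row (-3.70, adjusted p = 0.00426). Cyp11a1, which cuts the side chain of cholesterol to make pregnenolone, had -4.40, -3.58 and -1.94 against -5.66, -6.16 and -4.37, with tumor 3 just above healthy skin 1 (-2.09 ± 0.70, adjusted p = 0.0653). It was called lower when blocked by slide row (limma adjusted p = 0.022) or replicate number (0.0155), and without healthy skin 1 (0.0413) or tumor 3 (0.047). Cyp21a1 had -1.58, -1.60 and -1.27 against -1.52, -1.78 and -1.96, which overlapped (-0.27 ± 0.27, adjusted p = 0.494). Cyp11b1, Cyp11b2 and Cyp19a1 were not tested. Cyp20a1, an orphan P450 with no settled substrate, had a log2 fold change of 0.87 with its brightest probe (adjusted p = 0.132) and -0.60 with the other.

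The genes that supply or regulate P450 enzymes were read from lists. Of 9 tested electron donors and membrane partners, 1 was lower: Pgrmc2, a heme-binding membrane protein (-1.39 ± 0.30, limma adjusted p = 0.0164). The reductase gene Por had 1.04 and was not called (adjusted p = 0.133). Of 13 genes of heme synthesis and breakdown, 1 was higher: Blvra, which reduces biliverdin (1.18 ± 0.32, adjusted p = 0.0325). None of 4 epoxide hydrolases and none of the P450 genes with other symbols, Cyp51, Tbxas1 and Ptgis, was called. Of 16 tested nuclear receptors that regulate P450 genes, 8 were lower and 1 was higher, with a median log2 fold change of -1.14, beside 15.6% lower, 10.3% higher and a median of -0.16 over all features.

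Among those receptors, the 3 largest differences were falls. Pparg, the fatty acid receptor of adipocytes and sebocytes, had 1.19, 2.09 and 2.82 in healthy skin and -1.74, -1.33 and -0.88 in tumors (log2 fold change -3.35 ± 0.46, limma adjusted p = 0.00312). Nr1i3, the constitutive androstane receptor that induces Cyp2b genes in liver, had -0.75, -0.22 and -0.17 against -3.39, -3.65 and -3.14 (-3.02 ± 0.30, adjusted p = 0.00102). Esr1, the estrogen receptor, had -1.32, -0.96 and -0.61 against -4.44, -3.55 and -3.83 (-2.98 ± 0.35, adjusted p = 0.00169). No tumor overlapped healthy skin in any of them. The other receptors lower in tumors were Nr1h3, Nr3c1, Ppara, Rxra and Vdr, and Ppard was higher.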

How the data were processed

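RNA of 3 healthy skin and 3 tumor biopsies (RIN 9, 0.2 µg, Cy3) was hybridised to one-colour Agilent arrays on 1 slide. Deposited scanner files, per the file headers from Feature Extraction 10.7.3.1, hold spot intensity. The deposited series table holds log2 values that rank probes within an array as the median signal does; the submitters' processing notes name limma without a version. Log2 processed signals were taken relative to each array's 75th percentile. Spots flagged as outliers were dropped and a probe's spots averaged. Probes were kept if they had a value on every array and were well above background on 3 or more. The brightest probe stood for a gene, tested with limma 3.58.1 (R 4.3.3) over all 24756 features, Benjamini-Hochberg below 0.05. Probe coordinates are the array's (mm9). RefSeq accessions updated names, and 1 P450 probe has a newer symbol (Cyp2c44, now Cyp2c23). "Not called" does not show that groups are alike. The P450 genes and gene lists were chosen with earlier results of these data known. All called P450 genes are named, with values per array for the 12 largest falls and rises and for 6 enzyme classes. In data simulated for this comparison with 200 of 24756 genes changed, 37 of 50 changes of 3 log2 units and 11 of 50 of 2 were recovered, with 5 false calls. The fit of the real data called 25.9% of features, a far larger share. The adjusted p depends on that share, so the simulated counts do not give the recovery of this comparison. The arrays' number limits precision. Results were recomputed with normexp background correction, with arrays scaled by quantiles, by their median or by spike-ins, and from the authors' values. Further alternatives were looser and stricter detection filters, probes averaged, and blocks by replicate number or by row of the slide. Each array was also left out, and healthy skin 3 and tumor 1 together.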

Additional observations from a re-analysis of the deposited data

How the results depend on the processing

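Of the 21 called P450 genes, 9 were called under every alternative that tested them (Cyp1a1, Cyp2b19, Cyp2c38, Cyp2f2, Cyp2g1, Cyp2j9, Cyp3a25, Cyp3a57 and Cyp4b1), and 9 lost the call when 1 array was left out. Leaving out 1 array gave 3 to 5 P450 genes called higher and 11 to 16 lower. Over all features it gave 1380 to 2235 higher and 2482 to 3213 lower, against 2553 and 3867 with all arrays. It gave 8 to 11 called partner and regulator genes, against 13 with all arrays, and 4 to 8 called genes of the enzyme classes, against 7. No detection filter gave 4 P450 genes higher, beside 1476 of 36019 features. Scaling to the array median moved the middle feature's log2 fold change from -0.16 to 0.21, and scaling to spike-ins moved it to 0.73. Spike-in scaling left 9 P450 genes lower and 6 partner genes, while over all features it left 782 lower and 1904 higher, against 3867 and 2553. It ended the calls of Cyp1b1, Cyp26b1, Cyp2j13, Cyp2u1, Cyp2w1, Cyp3a11, Cyp3a59 and Cyp4f16. The signs of 4 uncalled genes turned: Cyp21a1 with median (0.10) and spike-in scaling (0.62), Cyp46a1 with median scaling (0.14), spike-in scaling (0.67) and the authors' values (0.0040), Cyp2j6 with spike-in scaling (0.45), the slide row as a block (0.83), and when 1 array was left out (-1.07 to 0.10), and Cyp24a1 with quantile normalization (0.39), median scaling (0.12), spike-in scaling (0.64), the authors' values (0.16) and the slide row (1.04), and when 1 array was left out (-0.90 to 0.45). The cause was not tested. Without healthy skin 3 and tumor 1 together, 5 P450 genes were higher and 15 lower, beside 2126 and 3020 of all features. That ended the calls of Cyp1b1, Cyp26b1, Cyp2e1, Cyp2u1 and Cyp7b1. The slide row as a block compares healthy skin 3 with the tumors and ended the calls of Cyp1b1, Cyp2e1, Cyp3a13, Cyp4f18 and Cyp7b1. Deviations from the group means correlated at 0.103, 0.129 and -0.083 between same-numbered arrays, and at -0.275 to 0.166 between the others. With 3 arrays per group this cannot show whether the numbers pair biopsies, and the labels do not say. The replicate block gave 6 higher and 16 lower, 19 of them among the 21 (Cyp2w1 and Cyp3a11 were lost), and called 5470 of all features against 6420.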
